A study of Mus musculus with 6 samples.

Results

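The members described here are the probes of mouse chromosome 11, that is, the 60-base DNA spots of the array whose positions on build mm9 lie on that chromosome and whose signal passed the scanner's test for being well above background on 3 or more of the 6 arrays. They numbered 2340 of the 3607 chromosome 11 probes and of the 30730 probes kept on the whole array, and they carried 1616 gene names, 1175 of them gene symbols. The study measured RNA in mouse embryonic stem cells, the cultured counterpart of the early epiblast. The 3 WT samples were wild-type cells of the line BJ FF2 ES, and the 3 TKO samples were cells derived from that line with knockouts of Tet1, Tet2 and Tet3. All cells had been kept in 2i medium on inactivated mouse feeder cells, freed of feeders, moved to matrigel and harvested as 1 dish per sample, and all were grown at the same time. The labels do not say how the 3 genes were altered or whether the TKO samples came from 1 clone or several, so it is not known whether the spread over TKO dishes holds any spread between independently made lines. The chromosome was selected because its probes read higher in the TKO dishes in these same data, so its TKO minus WT differences are a description and were not tested as a property of the chromosome. The reference set was the 22034 kept probes of the 15 autosomes other than 1, 8, 10 and 11.

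Chromosome 11 is one of the most gene-dense mouse chromosomes. It carries the tumour suppressor gene Trp53, the signalling gene Stat3, the Hoxb cluster of homeobox genes, the type I keratin cluster, the alpha globin genes and many genes for parts of large housekeeping complexes. Tet enzymes oxidise 5-methylcytosine, the methylated base found mainly in CG dinucleotides, and their loss is studied as a change of DNA methylation spread over all chromosomes. Embryonic stem cells in culture are also known to acquire gains of whole chromosomes, and chromosome 11 is among those reported. The arrays measured RNA only, so the number of copies of any chromosome was not measured here.

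The probes themselves are short stretches of transcript. Among the brightest 10% of its genes with a symbol, the 6 whose difference lay nearest to the chromosome's median stand here for its typical member. The first 30 of the 60 bases of each of their probes are given with the mm9 position and strand in the array's annotation, and no base is in capitals because no motif is compared.
Trim41, chr11:48619920-48619979, minus strand: ggtggctgaggtcaactcatgttcttgggg
Hint1, chr11:54683858-54683917, plus strand: caggttggggataaagtgtccttctctaga
Prpf8, chr11:75322876-75322935, plus strand: ccctttgcgttctgtgcttgtgttgttgat
Nme2, chr11:93811261-93811320, minus strand: aaagagatccatctgtggtttaagcccgaa
Ubald2, chr11:116300285-116300345, plus strand: accagcactcaggagagtctgcctttggat
Arhgdia, chr11:120439423-120439482, minus strand: ggcagaggagcctgtccctgcttctcttct

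Pairs of probes of 1 gene that did not give 1 value are shown for Smarce1, which encodes a subunit of the BAF chromatin remodelling complex, and for Xaf1, an interferon-inducible gene, in which the strongest fall on the chromosome was read. The values of each pair are given with the gene groups.
Smarce1, chr11:99071347-99071406, minus strand: ccagaagacgagaagaaggagtaaatgttg
Smarce1, chr11:99070435-99070494, minus strand: gtcttagagactagaaacaagatagtttgt
Xaf1, chr11:72127175-72127234, plus strand: tctgtatttctggaccacagtcactcattt
Xaf1, chr11:72122169-72122228, plus strand: ccttcaacccttgcatttatggactctgga

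The files give the sites where Tet enzymes could act only as far as sequence goes. The 250 bases before the transcription start are shown for a typical gene, for Xaf1 and for Krt12, a keratin gene that was not well above background in any WT dish, so that its rise is known only as a lower bound. They are printed with each CG in capitals, from RefSeq on build GRCm38.p6, which is not the build of the probe positions. CG reads the same on both strands. Of 32851 promoters of that length in the table, 92.1% held at least 1 CG, 53.7% held at most 6 and 17.9% held at least 20. The methylation of these bases was not measured, and a count of CG in this window is a description only.
Trim41, 22 CG, chr11:48817392-48817641, minus strand: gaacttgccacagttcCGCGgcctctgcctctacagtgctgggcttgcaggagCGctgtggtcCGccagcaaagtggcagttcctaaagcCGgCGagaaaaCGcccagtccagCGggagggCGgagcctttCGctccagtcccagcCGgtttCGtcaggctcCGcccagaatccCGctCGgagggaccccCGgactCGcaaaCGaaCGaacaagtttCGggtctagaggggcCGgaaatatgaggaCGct
Xaf1, 5 CG, chr11:72301379-72301628, plus strand: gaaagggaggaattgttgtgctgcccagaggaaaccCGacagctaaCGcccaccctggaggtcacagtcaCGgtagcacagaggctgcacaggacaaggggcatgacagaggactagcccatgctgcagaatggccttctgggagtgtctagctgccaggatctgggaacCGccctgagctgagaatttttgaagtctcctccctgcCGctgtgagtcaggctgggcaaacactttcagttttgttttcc
Krt12, 6 CG, chr11:99422260-99422509, minus strand: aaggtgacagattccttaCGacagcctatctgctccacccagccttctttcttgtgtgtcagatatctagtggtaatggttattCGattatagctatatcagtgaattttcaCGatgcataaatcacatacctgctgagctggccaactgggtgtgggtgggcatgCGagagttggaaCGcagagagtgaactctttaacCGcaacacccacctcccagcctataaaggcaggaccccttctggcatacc

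Levels are log2 processed signals relative to the 75th percentile of the same array, which lay between 366.7 and 414.2 intensity units, and differences are TKO minus WT on that log2 scale with the standard error (SE) of limma's fit and n = 3 dishes per group. A probe or gene was called where limma's Benjamini-Hochberg adjusted p over all kept probes was under 0.05. Of the 3 targeted genes, Tet1 and Tet2 were lower in every TKO dish than in any WT dish (differences of -1.37 ± 0.044 and -2.94 ± 0.054) and Tet3 was not called (-0.24 ± 0.098). All 12 embryonic stem cell markers were well above background on every array, 3 of them called higher and 7 lower. Their mean level was 5.76 to 5.80 in WT and 5.20 to 5.22 in TKO dishes. The largest difference was that of Zfp42 on chromosome 8 (-4.07 ± 0.049), and those of the other markers lay between -1.07 and 0.46. Of 20 feeder fibroblast markers 18 were kept, all well above background on every array, with a mean level of 0.39 to 0.41 in WT and 0.52 to 0.66 in TKO dishes, 10 called higher and 3 lower. Lum and Fap were not kept, and 1 of the 18, Col1a1, lies on chromosome 11. Whether RNA of feeder cells had a part in any difference on chromosome 11 was not tested.

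Most chromosome 11 probes read moderately higher in the TKO dishes. Set against the mean of the 3 WT dishes, the median chromosome 11 probe differed by 0.36, 0.35 and 0.33 in TKO dishes 1, 2 and 3. Each WT dish set against the other WT dishes gave a median between -0.0081 and 0.0025. The 3 TKO values lay close together and far from the WT values. The dishes are bulk samples, so that a change in the share of cells of a kind and a change in RNA per cell cannot be told apart. Taken relative to the reference autosomes, which removes any constant of an array, the median of chromosome 11 stood 0.37, 0.34 and 0.36 higher in the TKO dishes (mean 0.36 ± 0.012, SD, n = 3) and between -0.0042 and 0.0055 from the reference in the WT dishes. Between dishes of 1 group the same quantity stayed between -0.0095 and 0.0076 in all 6 pairs.

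**Figure D1:**
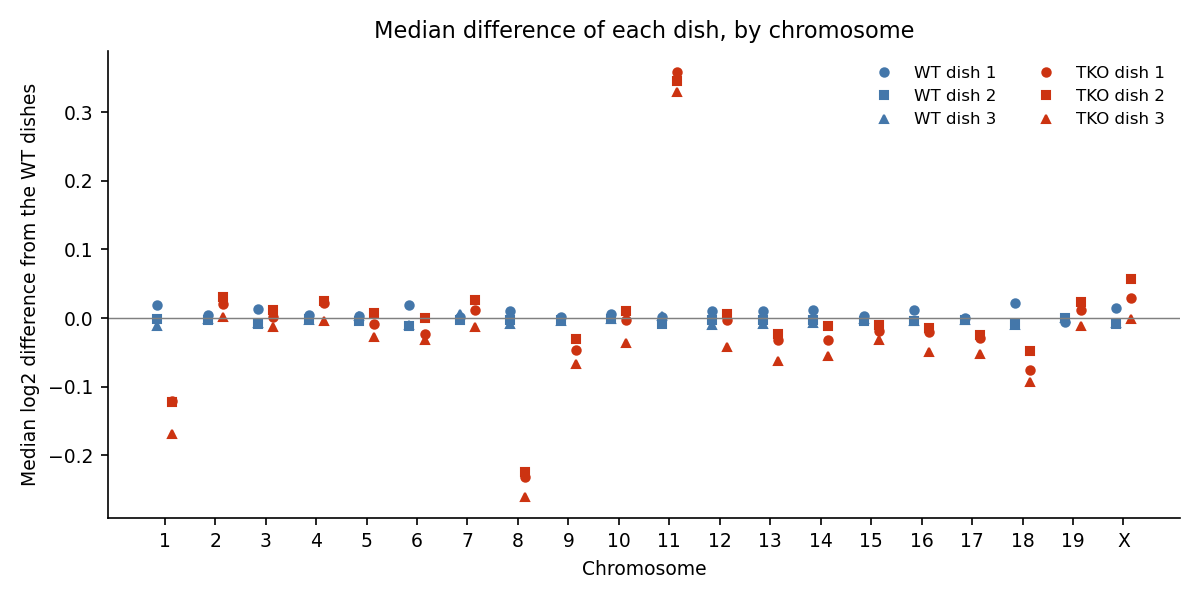
Median log2 difference of the kept probes of each chromosome in each dish (y axis) by chromosome (x axis), TKO dishes against the mean of the 3 WT dishes and each WT dish against the mean of the other WT dishes. The 3 TKO points of chromosome 11 lie between 0.33 and 0.36, those of chromosome 8 between -0.26 and -0.22, and the WT points of every chromosome near 0.

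In the fit over all arrays the median difference of chromosome 11 was 0.35, a ratio of 1.28, against -0.014 on the reference autosomes, so that the medians stood 0.37 apart, a ratio of 1.29. The medians of single reference autosomes ran from -0.074 to 0.015. Of the 2340 probes, 1736 (74.2%) were above 0, against 48.6% of the reference probes. A total of 1335 probes (57.1%) were called higher in TKO and 303 (12.9%) lower, beside 28.7% and 28.4% of all kept probes, and 702 were not called. Calls higher made up 81.5% of the calls on chromosome 11, or 66.4% when arrays were scaled by the median signal (931 higher, 471 lower), a scaling that moved the median of all kept probes by -0.19 and left the gap between chromosome 11 and the reference at 0.37. All 3 TKO values lay above all 3 WT values for 1419 probes (60.6%, beside 32.7% of all kept probes) and below them for 358 (15.3%, beside 33.1%). Because the chromosome was selected on this contrast, nothing is read from these counts beyond their size. By gene, 923 of the 1616 genes were called higher and 220 lower, beside 29.2% of all genes in each direction (29.2% higher, 29.2% lower), and 473 were not called.

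The 6 typical genes show what a difference near the median looks like in the dishes for bright probes. Prpf8, the core protein of the spliceosome, had levels of 7.71, 7.73 and 7.69 in WT dishes 1 to 3, against 8.11 to 8.13 in TKO dishes 1 and 2 and 8.0 in TKO dish 3 (0.37 ± 0.048). Nme2, a nucleoside diphosphate kinase, read 8.43, 8.38 and 8.44 against 8.80, 8.78 and 8.77 (0.37 ± 0.038). In both genes the groups were well separated although the ratio was only about that of the chromosome's median. Hint1, a histidine triad nucleotide hydrolase, stood at 8.48, 8.46 and 8.42 in WT against 8.77, 8.85 and 8.75 in TKO dishes (0.34 ± 0.044), and Arhgdia, a regulator of small GTPases, read 6.86, 6.78 and 6.92 against 7.16, 7.25 and 7.27 (0.37 ± 0.054). Trim41, a ubiquitin ligase of the tripartite motif family, differed by 0.36 ± 0.040 and Ubald2 by 0.33 ± 0.063. All 6 were called higher, and all 6 lost the call under scaling by the median signal.

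The whole distribution of differences stood to the right of the reference, not only its upper tail. Chromosome 11 exceeded the reference by 0.35 at the 5th percentile, 0.32 at the 10th, 0.28 at the 25th, 0.43 at the 75th, 0.37 at the 90th and 0.31 at the 95th. The gap was therefore between 0.28 and 0.43 at every percentile read. The distribution was also wider, with an interquartile range of 0.73 against 0.58. Differences over 1 were found for 330 chromosome 11 probes (14.1%, against 7.28% of reference probes) and differences under -1 for 73 (3.12%, against 6.29%).

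**Figure D2:**
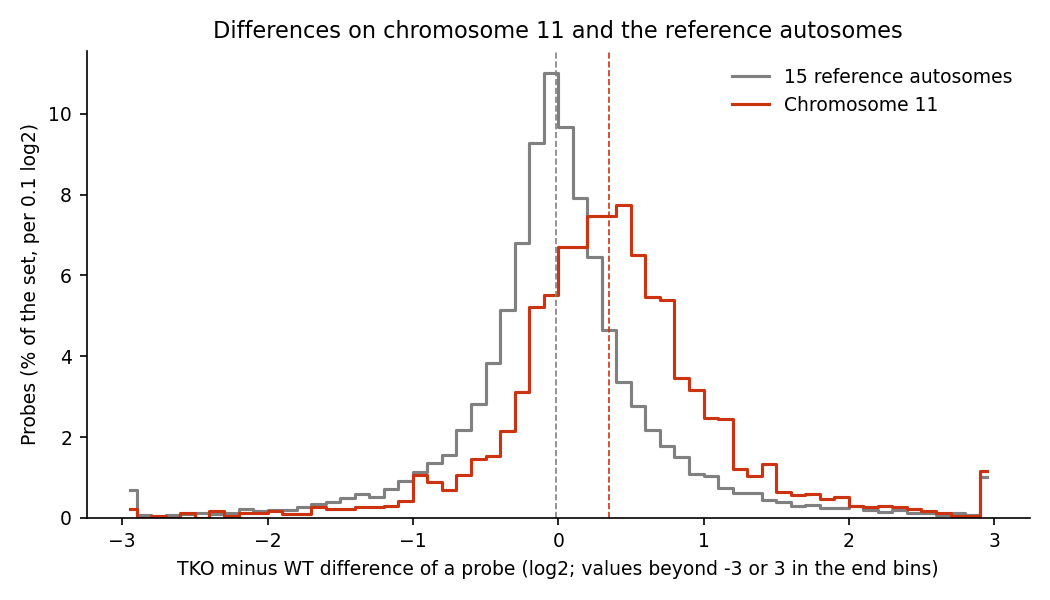
Percent of probes per 0.1 of log2 difference (y axis) by TKO minus WT difference (x axis) for the 2340 chromosome 11 probes and the 22034 reference probes, with dashed lines at the medians of 0.35 and -0.014. The chromosome 11 curve has 1 broad peak displaced to higher values along its length.

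The higher readings ran along the chromosome from end to end, with uneven height. In windows of 5 Mb counted from the start of the sequence, all 25 medians were above 0 and above the median of the highest reference autosome. Under scaling by the median signal, 20 of the 23 windows with at least 20 probes were above 0, the lowest stood at -0.15, and all 23 were above the reference median at that scaling. In the 23 windows with at least 20 probes the medians of the 3 TKO dishes lay above those of all 3 WT dishes. The exceptions to that separation were the thinly filled windows at 10 to 15 Mb (13 probes) and 35 to 40 Mb (7 probes). Among the 23, 19 had a median over 0.20, and the SD over TKO dishes of a window's median was at most 0.072. On the reference autosomes, 317 such windows had a median of -0.019, a 5th percentile of -0.22 and a 95th of 0.18, with 45.1% above 0 and 4 above the median of chromosome 11.

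The lowest filled window lay at 30 to 35 Mb, where 65 probes had a median of 0.042 and TKO dishes gave 0.056, 0.076 and 0.050. It held 20 probes called higher (30.8%) and 19 lower (29.2%), near the 28.7% higher and 28.4% lower of all kept probes. Its largest rises among genes with a symbol were Nsg2, a neuronal vesicle protein (-3.79, -3.72 and -3.71 in WT, -1.96, -2.16 and -1.81 in TKO dishes, 1.76 ± 0.097), and Cpeb4, an RNA-binding regulator of translation (0.75 ± 0.12, well above background on 2 of 3 arrays in each group). Its largest falls were Sh3pxd2b, a podosome scaffold (-0.92 ± 0.088), and Efcab9, a sperm calcium channel component that was not well above background in any TKO dish. The highest window lay at 80 to 85 Mb, where 74 probes had a median of 0.61 and TKO dishes gave 0.62, 0.65 and 0.58. Of these probes 57 (77.0%) were called higher and 7 (9.46%) lower. There Cct6b, a testis form of a chaperonin subunit, stood at -0.92, -0.71 and -0.86 in WT against 1.41, 1.45 and 1.35 in TKO dishes (2.24 ± 0.067), and Rnf135, a ubiquitin ligase of RNA sensing, differed by 1.75 ± 0.045. Slfn9 fell in that window by 0.57 ± 0.054, and its other kept probe differed by -1.96 ± 0.098. Asic2, an acid-sensing channel, was at least 1.46-fold lower, being not well above background in the TKO dishes.

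**Figure D3:**
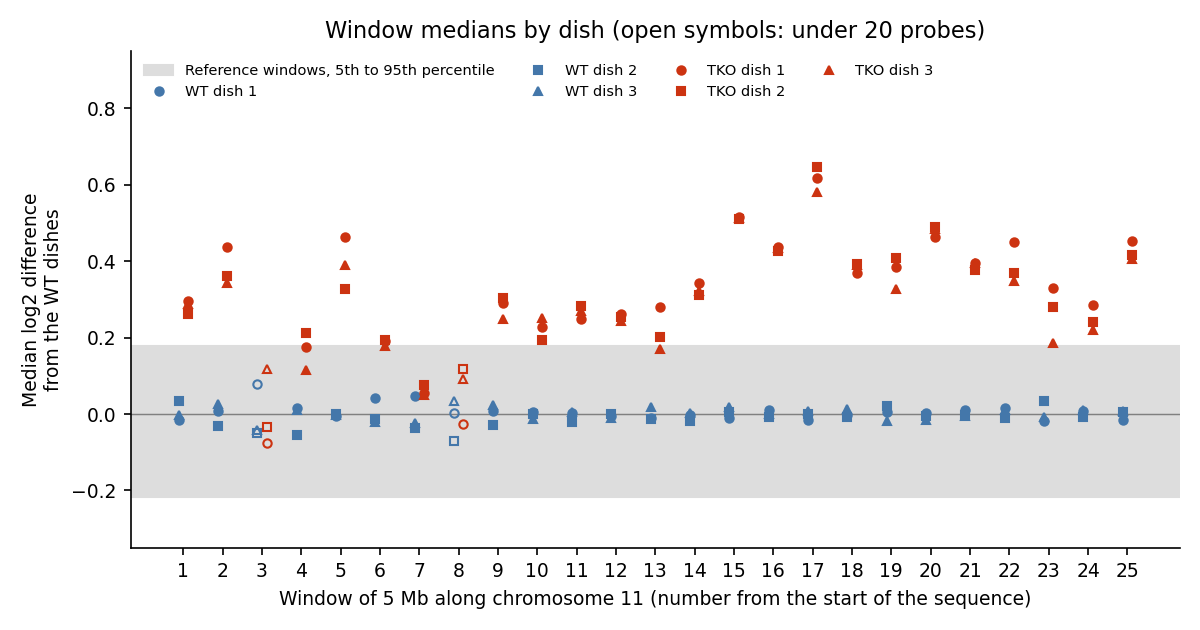
Median log2 difference of each dish from the WT dishes (y axis) in the 25 windows of 5 Mb along chromosome 11 (x axis, window number), with the 5th to 95th percentile of 317 reference windows in grey and windows under 20 probes as open symbols. TKO points of filled windows lie above the WT points throughout, lowest in window 7 and highest in window 17.

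The stretch from 70 Mb to the end read higher than the stretch before it. Its 1394 probes had a median of 0.41 (0.43, 0.41 and 0.41 in the TKO dishes), against 0.26 (0.28, 0.27 and 0.25) for the 946 probes before 70 Mb. This boundary was set after the window values were seen. The mean levels of the probes were alike in both stretches, with medians of -0.16 and -0.19, and among probes in the upper 40% of levels the medians were 0.42 and 0.31. Narrower windows showed local gaps. At 117.5 to 120 Mb, 83 probes had a median of -0.015 (0.019, 0.012 and -0.038 in the TKO dishes) with 23 called higher and 23 lower, while the adjoining 115 to 117.5 Mb had a median of 0.44 over 116 probes, 78 higher and 8 lower. The low stretch holds Socs3, Birc5, Dnah17, Tmem235 and Cbx8, each called lower, while its 23 probes called higher are not named here. Its share called was 27.7% in each direction, near the 28.7% higher and 28.4% lower of all kept probes. The other filled window of 2.5 Mb with a median below 0 was 32.5 to 35 Mb (-0.031 over 35 probes).

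The deepest local fall interrupted one of the highest windows. At 70 to 75 Mb, 131 probes had a median of 0.55. There 90 were called higher (68.7%) and 20 lower (15.3%), beside 28.7% and 28.4% of all kept probes. Within it, Slc13a5, the plasma membrane citrate transporter, stood at 3.57, 3.71 and 3.69 in WT against -0.60, -0.54 and -0.78 in TKO dishes (-4.30 ± 0.080). Xaf1 stood at 3.55, 3.54 and 3.59 in WT against -3.20, -3.73 and -3.57 in TKO dishes (-7.07 ± 0.14), and Tekt1, a tektin of ciliary and flagellar microtubules, differed by -1.51 ± 0.056. The groups were far apart in all 3 genes. All 5 names with a probe between 72055587 and 72158290 were called lower, the others being Fbxo39 (-0.44 ± 0.088) and a probe with no gene name (-0.89 ± 0.071). These limits are the start of the Slc13a5 probe and the end of the Tekt1 probe. The interval therefore begins and ends on genes already seen to fall, and its count is a description only. On the lower-numbered side the next name, 4930563E22Rik, was not called (0.27 ± 0.40), and Med31 beyond it was called higher (0.20 ± 0.039). The interval, Fbxo39, 4930563E22Rik and Med31 were picked after their values were seen, because of their place.

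The gap to the reference was wider among brighter probes. Kept probes were put in 5 equal bins by the mean of all 6 arrays, and the gap between the medians of chromosome 11 and the reference was 0.17, 0.31, 0.35, 0.39 and 0.42 from the dimmest to the brightest bin. The 3 TKO dishes gave 0.24, 0.18 and 0.20 in the dimmest and 0.43, 0.40 and 0.43 in the brightest bin. The share of chromosome 11 probes called higher went from 32.1% to 69.0% over these bins and the share called lower from 11.8% to 9.59%, while 24.0% and 33.2% of the reference probes in the brightest bin were called higher and lower. Binning by the WT dishes alone gave 0.27, 0.31, 0.35, 0.41 and 0.39, and by the TKO dishes alone 0.13 in the dimmest and 0.43 in the brightest bin. In 10 bins the gap was 0.12 in the dimmest, 0.46 in the ninth and 0.35 in the brightest, so that it did not widen at every step. In the 5 bins by all 6 arrays, chromosome 11 held 6.35%, 6.74%, 7.86%, 7.63% and 9.50% of the kept probes from dimmest to brightest. Binned by the WT dishes alone, it held 6.92% of the dimmest and 8.79% of the brightest bin. Within the brightest of the 5 bins by all 6 arrays the interquartile range of differences was 0.54 on chromosome 11 and 0.34 on the reference.

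**Figure D4:**
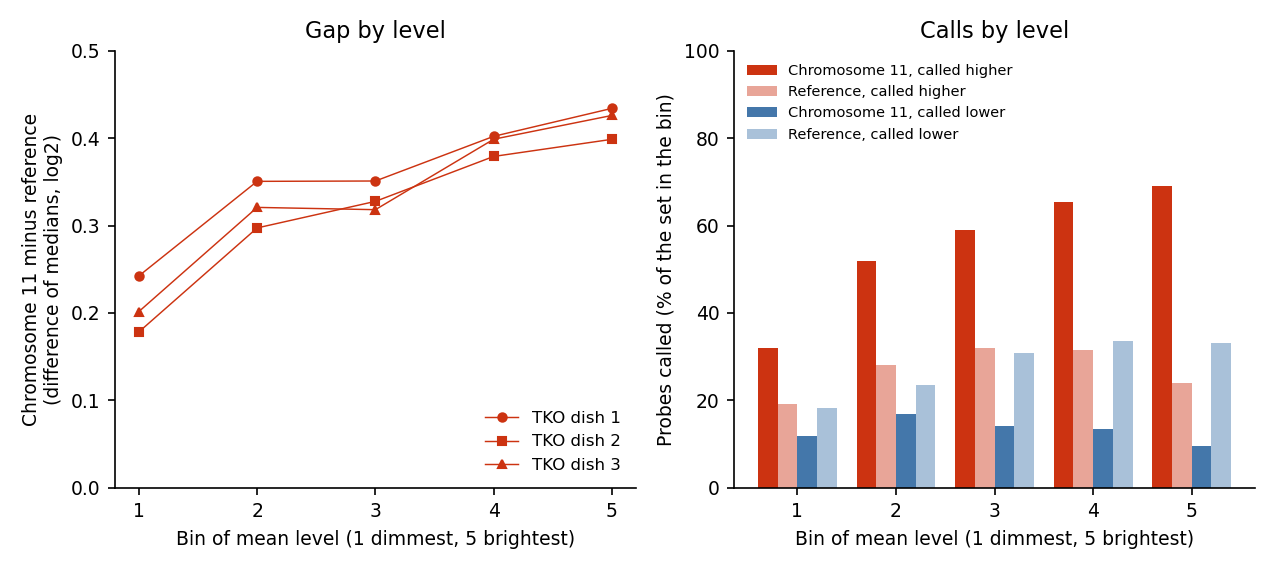
Left, gap between the median log2 differences of chromosome 11 and the reference (y axis) in each TKO dish by bin of mean level (x axis, 1 dimmest). Right, percent of probes of each set called higher or lower in the same bins. The gap runs from 0.18 to 0.24 in bin 1 to 0.40 to 0.43 in bin 5, and the share of chromosome 11 probes called higher from 32.1% to 69.0%.

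At the threshold of the selection, the 100 chromosome 11 probes well above background on exactly 3 arrays had a median difference of 0.17. The 82 probes that missed it with 2 arrays had 0.47, the 101 with 4 arrays -0.14 and the 70 with 5 arrays 0.24. The reference medians at 2, 3 and 4 arrays were 0.056, -0.074 and -0.30. TKO dishes 2 and 3 had 51.9% and 52.2% of spots well above background, against 54.9% to 58.5% on the other arrays. Whether this shaped these classes was not tested. The probes well above background on no array differed by 0.48 on chromosome 11 and by 0.48 on the reference autosomes. Among those probes the 2 sets read alike.

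Medians differed more by kind of probe than by strand. Probes of the plus strand had a median of 0.36 and those of the minus strand of 0.35. Probes for RefSeq mRNAs had a median of 0.41, probes for RefSeq noncoding RNAs of 0.16 and probes for long intergenic RNAs of 0.16. These classes also differed in level, with medians of 0.76, -1.36 and -2.72, and kind of probe and level were not separated. Names that are gene symbols had a median of 0.40, and clone, predicted or accession names of 0.14. Probes with under 40% GC had a median of 0.42, those from 40% to 50% of 0.33 and those of 50% and over of 0.28, while the reference medians in these classes were 0.0043, -0.014 and -0.031. Mean GC was 43.5% on chromosome 11 and 43.2% on the reference. Low-GC probes were also brighter on chromosome 11 (median level 0.81), and the 2 properties were not separated.

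Probes of 1 gene mostly moved together. Of 507 genes with more than 1 kept probe, holding 1231 probes, the median range of differences within a gene was 0.22, and 379 had a range under 0.50. For 57 genes the range was over 1, and for 15 genes probes were called in both directions. In Smarce1 the probe at 99071347 differed by 1.21 ± 0.040 and the probe at 99070435 by -0.24 ± 0.071, both called. The Xaf1 probe at 72127175 differed by -7.07 ± 0.14 and the one at 72122169 by -1.51 ± 0.16. The array annotation does not place probes in exons here, so which transcripts each probe reads is not given.

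Genes for the large housekeeping complexes were called higher or not called by their brightest probe. In none of 7 such lists was a member on chromosome 11 called lower by that probe (Srsf2, a splicing factor of the spliceosome list, was under scaling by the median signal, at -0.21). A dimmer probe of Srsf1 was called lower (-0.13 ± 0.043). All 10 mitochondrial ribosomal protein genes were called higher, with a median of 0.53. The 57 on the reference autosomes had a median of -0.078, with 12 called higher and 18 lower. Mrps24 stood at 4.09, 4.06 and 4.13 in WT against 5.26, 5.28 and 5.32 in TKO dishes (1.19 ± 0.041), and Mrpl55 differed by 0.90 ± 0.043 and Mrpl38 by 0.88 ± 0.064. All 8 proteasome subunit genes were called higher (median 0.44), beside 6 higher and 5 lower of 29 on the reference (median -0.054). The catalytic subunit gene Psmb6 stood at 7.41, 7.34 and 7.41 in WT and 8.04, 8.06 and 8.01 in TKO dishes (0.65 ± 0.041). The ATPase gene Psmc5 differed by 0.57 ± 0.035 and the lid gene Psmd12 by 0.60 ± 0.034. All 5 translation initiation factor genes were called higher (median 0.42, reference 0.058 with 15 higher and 11 lower of 41). Of these, Eif1, which helps select the start codon, differed by 1.13 ± 0.046, and by 0.43 ± 0.036 at its other kept probe. The helicase gene Eif4a1 differed by 0.42 ± 0.045 and Eif4enif1, which carries Eif4e into the nucleus, by 0.59 ± 0.059.

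Other complexes had smaller medians. Of 8 RNA polymerase and Mediator genes 6 were called higher (median 0.37), beside 9 higher and 15 lower of 42 on the reference (median -0.053). The rises were led by Med11 (0.93 ± 0.037), the polymerase II catalytic subunit gene Polr2a (0.80 ± 0.035) and Med24 (0.50 ± 0.036). Of 8 cytosolic ribosomal protein genes 4 were called higher, with a median of 0.15 against -0.067 for 57 on the reference. Of those 57, 0 were called higher and 9 lower. Rpl23a differed by 0.33 ± 0.049, Rpl19 by 0.29 ± 0.040 and Rpl26 by 0.26 ± 0.042, and all 8 values were above 0. Of 6 respiratory chain and ATP synthase genes 3 were called higher (median 0.19), beside 7 higher and 35 lower of 63 on the reference (median -0.17). The 3 were Uqcr10 of complex III (0.43 ± 0.043), Atp5g1 (0.28 ± 0.038) and Atp5h (0.22 ± 0.048). A dimmer probe of Atp5g1 read the other way and was not called (-0.18 ± 0.063). Uqcrq (0.08 ± 0.039), Cox10 (0.16 ± 0.074) and Cox11 (0.11 ± 0.058) were not called. Of 4 spliceosome genes Prpf8 and Sf3a1 (0.30 ± 0.036) were called higher, and the splicing factor genes Srsf1 (0.04 ± 0.048) and Srsf2 (-0.01 ± 0.044) were not. Dimmer probes of both genes were called, for Srsf1 lower (-0.13 ± 0.043) and for Srsf2 higher (0.56 ± 0.16). On the reference 11 of 34 spliceosome genes were called higher and 5 lower. Under scaling by the median signal the medians of the cytosolic ribosomal, respiratory and spliceosome lists changed sign (-0.05, -0.0019 and -0.02), and 0 members of the first 2 lists were called.

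Among genes of chromatin, mitosis and DNA repair more were called higher than lower, as among the genes of the whole chromosome (923 higher and 220 lower of 1616). Of 19 chromatin regulators 16 were called higher and 2 lower, with a median of 0.64. The 11 on the reference autosomes had a median of -0.069, with 1 called higher and 5 lower. Ezh1, a histone H3 lysine methyltransferase of Polycomb repressive complexes, stood at 3.23, 3.40 and 3.30 in WT against 4.85, 4.78 and 4.68 in TKO dishes (1.46 ± 0.067), and Suz12, a core subunit of the same complexes, read 3.52, 3.51 and 3.53 against 4.63, 4.56 and 4.49 (1.04 ± 0.049). No TKO value of either gene came near a WT value. The members called lower included the Polycomb chromobox gene Cbx8 (-0.66 ± 0.20). Smarce1 was called higher by its brighter probe and lower by its other probe.

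Of 16 mitosis genes 13 were called higher and 2 lower (median 0.48), and 8 were called higher under scaling by the median signal. The 15 on the reference had a median of -0.24, with 2 called higher and 9 lower. The gamma-tubulin gene Tubg2 differed by 1.00 ± 0.096, the kinase gene Nek8 by 0.86 ± 0.064 and the delta-tubulin gene Tubd1 by 0.79 ± 0.099. Birc5, the survivin subunit of the chromosomal passenger complex, fell by a small amount, from 7.18, 7.14 and 7.18 in WT to 7.03, 7.05 and 7.02 in TKO dishes (-0.14 ± 0.037), and so did the kinesin gene Kif18b (-0.18 ± 0.049). Of 13 DNA repair and damage response genes 9 were called higher and 2 lower (median 0.46). The 17 on the reference had a median of -0.022, with 5 called higher and 6 lower. Lig3, a DNA ligase of nuclear and mitochondrial repair, differed by 0.99 ± 0.039, the homologous recombination gene Brca1 by 0.84 ± 0.10, and Trp53 by 0.82 ± 0.072, with Trp53 levels of 0.69, 0.70 and 0.77 in WT and 1.43, 1.52 and 1.67 in TKO dishes. Rad50 of the MRN complex fell, from 2.93, 2.84 and 2.86 to 2.37, 2.27 and 2.29 (-0.57 ± 0.048), and the glycosylase gene Mpg differed by -0.16 ± 0.048.

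Signalling genes went both ways. In the LIF and Stat3 pathway, which supports self-renewal of mouse embryonic stem cells, 2 of 6 genes were called higher and 4 lower (median -0.41). The 11 on the reference autosomes had a median of -0.36, with 2 called higher and 6 lower. Stat3, the pathway's transcription factor, stood at 3.45, 3.52 and 3.56 in WT against 2.93, 2.94 and 2.95 in TKO dishes (-0.57 ± 0.043). Socs3, a feedback inhibitor that Stat3 induces, read 5.90, 5.84 and 5.83 against 4.32, 4.25 and 4.26 (-1.58 ± 0.043). Both stood apart from a chromosome on which most probes read higher, as did Stat5a (-0.89 ± 0.072). The cytokine gene Osm rose, from -4.32, -4.33 and -4.37 to -3.08, -2.76 and -2.84 (1.45 ± 0.091), and the adaptor gene Grb2 differed by 0.37 ± 0.047.

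Of 7 Wnt and BMP signalling genes 6 were called higher and 1 lower (median 0.92). The 16 on the reference had a median of 0.095, with 5 called higher and 4 lower. The receptor gene Fzd2 stood at 0.18, 0.19 and 0.11 in WT against 2.00, 2.12 and 2.16 in TKO dishes (1.94 ± 0.058), and Axin2, a feedback target of canonical Wnt signalling, read -2.23, -2.41 and -2.27 against -1.25, -1.29 and -1.34 (1.01 ± 0.062). The ligand gene Wnt3 was not well above background in any WT dish and was at least 3.15-fold higher in TKO. Nog, a secreted BMP antagonist, was called lower (-0.35 ± 0.11). The nuclear receptor genes Rara (0.46 ± 0.052), Thra (0.36 ± 0.052) and Nr1d1 (0.57 ± 0.098), all 3 of their list, were called higher, beside 3 higher and 3 lower of 7 on the reference autosomes.

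Lists of metabolic and transport genes differed in their counts. Of 7 lipid synthesis genes 5 were called higher and none lower (median 0.86, reference 0.27 over 12 genes): the sterol regulatory factor gene Srebf1 differed by 1.13 ± 0.059, the fatty acid synthase gene Fasn by 1.02 ± 0.059 and Pcyt2 of phosphatidylethanolamine synthesis by 0.89 ± 0.040. Fasn stood at -0.81, -0.65 and -0.63 in WT against 0.32, 0.30 and 0.34 in TKO dishes. On the reference autosomes 7 of the 12 lipid synthesis genes were called higher and 1 lower. Of 5 glycolysis and sugar uptake genes 3 were called higher, the enolase gene Eno3 (1.00 ± 0.047), the galactokinase gene Galk1 (0.48 ± 0.049) and Pgam2 (0.34 ± 0.058), and the insulin-regulated glucose transporter gene Slc2a4 was called lower (-0.92 ± 0.063). Aldoc (-0.27 ± 0.14) was not called. On the reference autosomes 2 of 13 genes of this list were called higher and 8 lower, with a median of -0.22 against 0.34 on chromosome 11. Of 29 solute carriers 14 were called higher and 5 lower, from Slc16a11 (1.98 ± 0.093) and Slc5a10 (1.68 ± 0.077) to Slc47a1 (-1.48 ± 0.055) and Slc13a5, and their median of 0.17 changed sign to -0.03 under scaling by the median signal. Of 182 solute carriers on the reference autosomes 62 were called higher and 40 lower (median -0.010).

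Several gene families of the chromosome sit in tandem clusters. Of 14 keratin genes 8 were called higher and 3 lower (median 0.36). The 11 on the reference had a median of 0.21, with 4 called higher and 2 lower. Krt9 stood at -3.55, -3.29 and -3.36 in WT against -1.03, -1.06 and -1.11 in TKO dishes (2.33 ± 0.076), and Krt19, a keratin of simple epithelia, read 1.31, 1.46 and 1.34 against 0.47, 0.14 and 0.14 (-1.12 ± 0.11). Krt12 was not well above background in any WT dish and at least 5.76-fold higher in TKO, while Krt28 differed by 1.95 ± 0.17. Krt23 was called lower (-2.11 ± 0.52) but was well above background in only 1 TKO dish, and Krt42 was called lower too (-0.30 ± 0.062). None of the 5 kept keratin-associated protein genes was called, with differences between -0.19 and 0.20, where the count at other scalings was 0 higher and 1 to 2 lower.

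Of 7 kept Hoxb genes 3 were called higher and 1 lower, with a median of 0.38, where 16 Hox genes of the reference autosomes had a median of -1.58, 0 called higher and 11 lower. Hoxb4 stood at -2.74, -2.97 and -2.94 in WT against -2.23, -2.31 and -2.35 in TKO dishes (0.59 ± 0.075), Hoxb13 differed by 0.54 ± 0.074 and Hoxb2 by 0.68 ± 0.13, and Hoxb7 fell from -1.88, -1.89 and -1.69 to -2.88, -2.87 and -2.86 (-1.05 ± 0.066). The Hoxb median was 0.18 under scaling by the median signal and 0.01 under normexp correction. Of 12 interferon-inducible and immune GTPase genes 7 were called higher and 4 lower (median 0.47). Of 6 on the reference autosomes 2 were called higher and 2 lower (median 0.10). Irgm1, an immunity-related GTPase, stood at -3.36, -3.49 and -3.38 in WT against -1.21, -1.19 and -1.12 in TKO dishes (2.24 ± 0.054), and its relative Igtp differed by 1.67 ± 0.080 and the transcription factor gene Irf1 by 1.31 ± 0.046. Xaf1, Slfn10-ps (-2.54 ± 0.067), Slfn9 and Slfn5 (-0.24 ± 0.059) were called lower. Slfn10-ps is a pseudogene name, which the rule on gene symbols left out, and it was added after its value was seen. The chemokine genes Ccl7 (1.26 ± 0.11) and Ccl2 (1.05 ± 0.10) were called higher, and Ccl5 was not, its value in TKO dish 2 (-2.42) being far from those in the others (-5.16 and -5.46).

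The remaining clusters were small or dim. Of the 3 kept alpha globin genes Hba-a2 was called higher (0.51 ± 0.048), Hbq1b lower (-0.40 ± 0.095) and Hbq1a neither (-0.57 ± 0.26), and the theta genes Hbq1a and Hbq1b are near-identical copies whose probes may read each other. Only 4 of 74 olfactory receptor genes on the chromosome were kept. Of these, Olfr224 fell from 1.25, 1.42 and 1.36 in WT to -3.49, -4.05 and -4.03 in TKO dishes (-5.20 ± 0.17), Olfr1382 was called lower (-0.93 ± 0.27) and Olfr1383 higher (0.70 ± 0.20), and Olfr319 was not called (0.20 ± 0.10). Of 19 Zfp genes 9 were called higher and 7 lower, from Zfp385c (1.48 ± 0.068) and Zfp652 (1.16 ± 0.057) to the neighbours Zfp287 (-1.18 ± 0.080) and Zfp286 (-0.96 ± 0.059), and their median of 0.13 became -0.07 under scaling by the median signal. Of 275 Zfp genes on the reference autosomes 72 were called higher and 87 lower (median -0.029). Of 16 Tmem genes 11 were called higher and 2 lower (median 0.52). The 145 on the reference had a median of 0.040, with 56 called higher and 44 lower. Of 4 Rab GTPase genes 3 were called higher, led by Rab34 (0.85 ± 0.050), beside 7 higher and 18 lower of 37 on the reference autosomes. Of 6 kinesin and dynein genes Kif1c was called higher (0.52 ± 0.042) and Kif18b, Kif19a (-0.26 ± 0.070) and Dnah17 (-1.86 ± 0.21) lower, beside 7 higher and 11 lower of 33 on the reference. The other kept probe of Dnah17 was not called (-0.15 ± 0.47).

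Imprinted and germ cell genes of the chromosome, classes in which promoter methylation is known to control expression, included both large rises and large falls. Of 4 imprinted genes 2 were called higher and 1 lower (median 0.19, and -0.0085 under scaling by the median signal). The 19 on the reference had a median of 0.33, with 11 called higher and 4 lower. Of 6 germ cell genes 3 were called higher and 2 lower, with a median of 0.66. The 10 germ cell genes on the reference autosomes had a higher median, 0.79, with 6 called higher and 3 lower. Zrsr1, an imprinted retrogene expressed from the paternal allele, stood at 0.73, 0.72 and 0.82 in WT against 2.14, 2.22 and 2.16 in TKO dishes (1.42 ± 0.049). Commd1, in whose intron Zrsr1 lies, differed by 0.26 ± 0.053. Grb10, an imprinted growth inhibitor, fell from 0.65, 0.63 and 0.76 to -0.77, -0.69 and -0.43 (-1.31 ± 0.098). Its neighbour Ddc was not called by its brightest probe (0.12 ± 0.041), while a dimmer probe was called higher (0.34 ± 0.082). Tex19.1, a germ cell and placenta gene that restrains retrotransposons, stood at 4.62, 4.51 and 4.60 in WT against 6.21, 6.27 and 6.26 in TKO dishes (1.67 ± 0.046), and its near copy Tex19.2 differed by 2.49 ± 0.042, so that some signal could be shared between them. Spag9 was called higher (1.17 ± 0.038), and Tex14, of the germ cell intercellular bridge, was called lower (-0.19 ± 0.037), as was Tekt1.

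**Figure D5:**
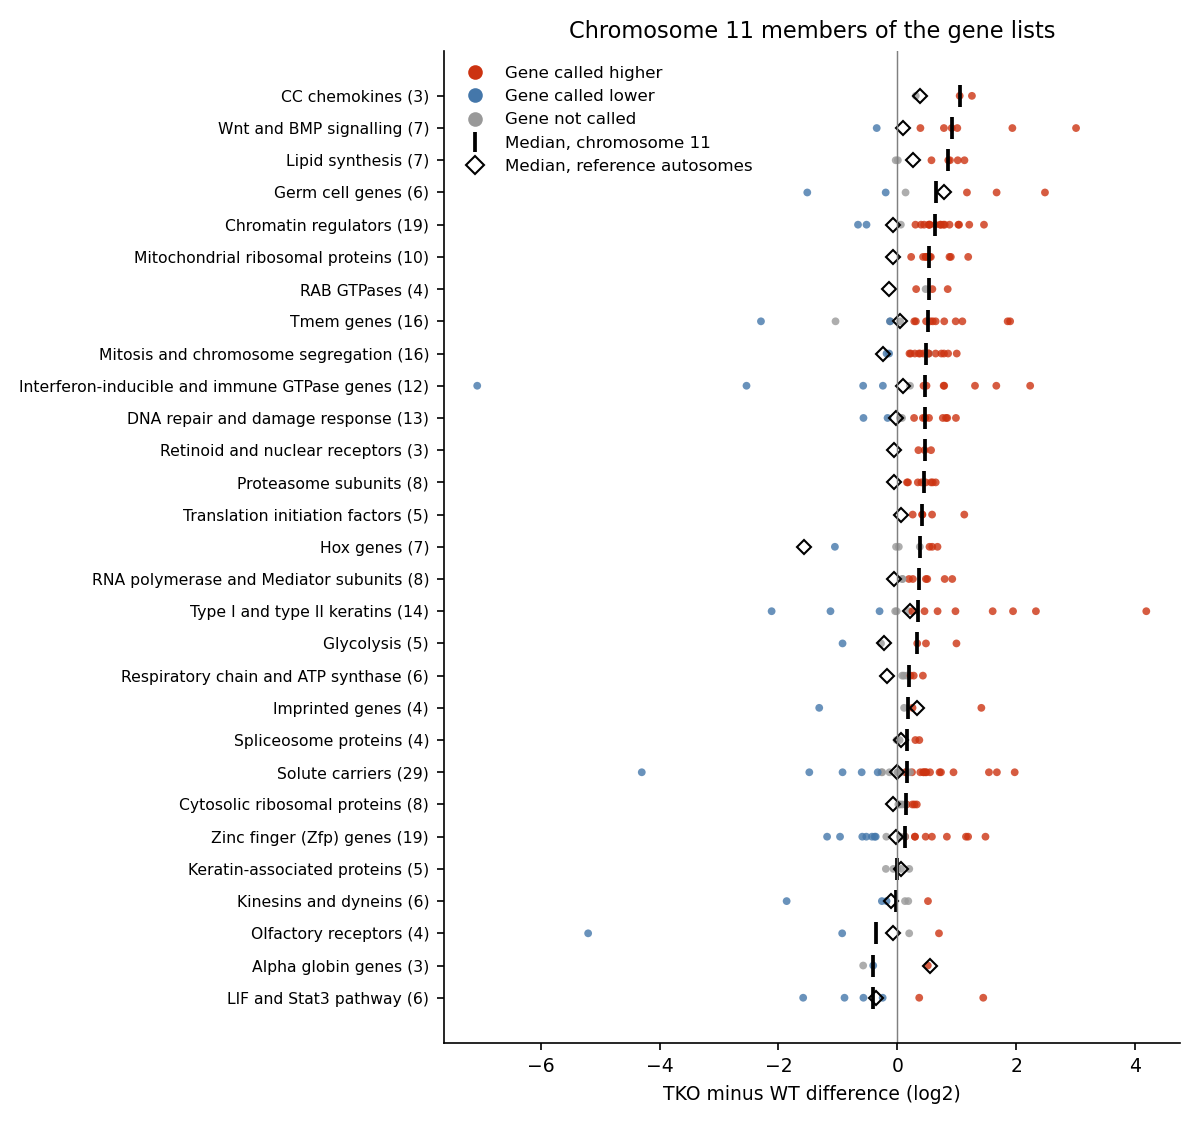
TKO minus WT log2 difference (x axis) of each chromosome 11 gene in the 29 gene lists (y axis, number of kept genes in brackets), coloured by call, with bars at the chromosome 11 median and diamonds at the median of the list's genes on the reference autosomes. Medians on chromosome 11 were above 0 in 24 of the 29 lists, from -0.41 for the LIF and Stat3 pathway to 1.05 for CC chemokines, and 6 medians changed sign when arrays were scaled by the median signal.

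Of the 12 largest rises by fitted difference, 7 were in genes not well above background in any WT dish. These 7 passed the filter through the TKO dishes alone, so that their place in this order is not measured. Only a lower bound of their ratio can be given: Krt12 (at least 5.76-fold), Dlg4, the postsynaptic scaffold PSD-95 (5.60-fold), Fn3k, which removes sugar adducts from proteins (4.38-fold), Cd300e (4.22-fold), Abca8b (3.51-fold), Lyrm7 (3.33-fold) and Wnt3 (3.15-fold). Lyrm7 had another kept probe that was not called (-0.98 ± 0.44). Measured in both groups were Tnfsf13os, which stood at -2.24, -2.40 and -2.36 in WT against 1.70, 1.48 and 1.57 in TKO dishes (3.92 ± 0.077), and Epx, the eosinophil peroxidase gene, which read -3.58, -4.58 and -3.79 against -0.62, -0.65 and -0.65 (3.35 ± 0.26). Lgals9, a galectin, differed by 2.79 ± 0.081, Bcl11a, a zinc finger repressor of fetal globin, by 2.61 ± 0.084 and Tex19.2 by 2.49. Other kept probes of Bcl11a gave 3.75 ± 0.46, called higher, and -0.16 ± 0.73, not called. The rises measured in both groups are many times the median of the chromosome.

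The 12 largest falls among genes with a symbol were Xaf1, Olfr224, Slc13a5, Sfi1, Asic2, Grin2c, Kcnh6, Dbil5, Tmem235, Fn3krp, Krt23 and Cuedc1. Of these, Asic2 and Kcnh6 were not well above background in any TKO dish, so that their place in this order is not measured. Sfi1, a centrosome protein gene near the start of the chromosome, stood at -0.61, -0.80 and -0.64 in WT against -4.27, -3.66 and -3.57 in TKO dishes (-3.15 ± 0.20). Dbil5, a testis gene of the acyl-CoA binding family, differed by -2.33 ± 0.060, the glutamate receptor gene Grin2c by -2.38 ± 0.20, Cuedc1 by -2.05 ± 0.098 and Tmem235 by -2.29 ± 0.14. The potassium channel gene Kcnh6 was at least 1.24-fold lower. Fn3krp fell from -1.69, -1.78 and -1.76 to -4.50, -4.18 and -2.98 (-2.14 ± 0.40), well above background in 2 TKO dishes, while its neighbour and paralog Fn3k was called higher.

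Calls on small differences and on dim genes were often lost when 1 dish was left out. Nog (-0.41 to -0.26), Mpg (-0.18 to -0.13) and Tmem256 (-0.13 to -0.10) lost the call without any 1 dish other than TKO dish 1, and Efcab9, whose signal in TKO dishes was not measured above background, without any other than TKO dish 3. Birc5 (-0.15 to -0.13) lost it without WT dish 1 or 3 or TKO dish 2 or 3, and Kif18b (-0.18 to -0.15) and Olfr1382 (-0.94 to -0.71) without WT dish 2 or 3 or TKO dish 2 or 3. Cbx8 (-0.69 to -0.62) lost it without any WT dish or TKO dish 2, Olfr1383 (0.54 to 0.73) without WT dish 1 or 3 or TKO dish 1 or 3, and Zfp879 (-0.61 to -0.49) without WT dish 1 or 3 or TKO dish 2. The calls of Kif19a (-0.22 without TKO dish 1), Krt23 (-1.98 without WT dish 2) and Slfn5 (-0.22 without WT dish 1) were lost for 1 dish each. Olfr1382, like Krt23, was well above background in only 1 TKO dish. Under scaling by the median signal the calls of Arhgdia, Atp5g1, Atp5h, Commd1, Grb2, Hint1, Nme2, Nr1d1, Olfr1383, Pgam2, Prpf8, Rab1, Rpl19, Rpl23a, Rpl26, Sf3a1, Thra, Trim41, Ubald2 and Uqcr10 were lost. Other settings ended the calls of 5 more genes. Under normexp correction Hoxb2 (0.08), Hbq1b (-0.08) and Cpeb4 (0.09) were not called. With the array row as a block, Hoxb2 (0.45), Hbq1b (-0.35) and Krt42 (-0.21) were not called, and within array row 1 alone Hoxb2 (0.45), Krt42 (-0.21) and Tex14 (-0.19) were not.

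For comparison with the other displaced regions of these cells, the 1799 kept probes of chromosome 1 had a median difference of -0.14 (-0.12, -0.12 and -0.17 in the TKO dishes), the 1695 of chromosome 8 had -0.23 and the 264 probes of chromosome 10 between 30 and 65 Mb had 0.66, and the value of chromosome 11 lay between the last 2. These regions were selected on the same contrast and share the same WT dishes, and their differences from chromosome 11 were not tested.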

How the data were processed

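RNA of 3 WT and 3 TKO dishes was hybridised to 1-colour Agilent arrays on 1 slide, scanned once. The authors deposited the scanner files, which the submitters' processing notes credit to Agilent Feature Extraction 11.5.1.1. Signals and local backgrounds in them are linear intensity values per the file headers, and the deposited spot flags are of another unit (other, 0 or 1). The deposited table of processed values holds log2 processed signals minus a constant per array; who chose the constant is not given in the sources used here.

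Control spots and outlier spots were left out, spots of a probe were averaged as log2 values, and each array's 75th percentile was subtracted. Probes well above background on at least 3 of 6 arrays were fitted with limma 3.58.1 (lmFit, eBayes; R 4.3.3), two-sided, with Benjamini-Hochberg adjustment over all 30730, after a check on simulated data. Of several kept probes the one with the highest mean stood for the gene. Of the 1175 gene symbols, 1170 matched the RefSeq table, 34 with a newer symbol; the array's names were kept. For a gene not well above background on any array of a group, the ratio is a lower bound: the mean of the measured group over, per array, the higher of the probe's own signal and the lowest signal among probes well above background. P-values measure only the spread between dishes, which may be technical, and the number of arrays limits the precision.

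The chromosome, the lists and the rule on which genes to name were chosen with earlier results of these data known. Named were the 12 largest rises and falls among called genes with a symbol and groups that did not overlap, 6 typical genes, up to 3 called genes per list and direction (members not called too, for lists of at most 6), the 2 largest rises and falls in the lowest and highest windows, and the Tet genes. Alternatives covered scaling, background correction, filters, probes of a gene, the deposited table, replicate and array-row blocks, each dish left out, the reference, windows and level bins. Not every gene that this rule names is reported here.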

Additional observations from a re-analysis of the deposited data

How the results depend on the processing

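The median difference of chromosome 11 moved by more than the SD over TKO dishes, without a change of sign, with the median signal (0.16), quantile normalization (0.31), normexp correction (0.22), probes well above background on all 6 arrays (0.37), no filter (0.41) and the deposited table (0.33). Its gap to the reference moved with normexp correction (0.26), no filter (0.24) and all autosomes but 11 as the reference (0.38), and stayed within that SD in the other settings run, among them each reference autosome left out in turn. Probes called lower numbered 471 with the median signal. Leaving out 1 dish gave medians of 0.34 to 0.36, gaps of 0.36 to 0.38, 1260 to 1299 probes called higher and 243 to 301 lower. Within array row 1, which holds the WT dishes and TKO dish 1, the gap was 0.37 with 1175 higher and 219 lower. Same-numbered dishes did not deviate together (correlations of -0.061, -0.0080 and 0.0030), and a fit with the replicate number as a block gave a median of 0.35, 1264 higher and 254 lower. Of windows with 20 or more probes (with 1 probe a gene, 20 genes), 20 of 23 were above 0 with the median signal (lowest -0.15), 31 of 33 in windows of 2.5 Mb (lowest -0.031) and 20 of 21 with 1 probe a gene, where the exception lay at 110 to 115 Mb (-0.0077).

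Of 135 named genes that were called, 98 kept direction and call in every setting run, 37 lost the call in at least 1 and 0 reversed; the losses were most frequent with the median signal (20 genes). Genes not called changed sign as follows. With the median signal Ddc gave -0.079, Uqcrq -0.11, Kif3a -0.064, Cox10 -0.033, Dnah2 -0.0091, Srsf1 -0.16, Cox11 -0.081, Zpbp2 -0.055 and Krtap1-4 -0.13. With array row as a block, and in row 1 alone, Aldoc gave 0.039, Ccl5 -0.50, Zpbp2 -0.14 and Krtap4-1 0.26. Zpbp2 gave -0.057 with quantile and -0.055 with normexp, Krtap1-4 -0.083 with quantile, and the mean of the probes of a gene gave -0.052 for Srsf1 and 0.18 for Srsf2. Without 1 dish, values were -0.65 to 0.87 for Ccl5, -0.018 for Zpbp2, -0.22 to -0.099 for Krtap1-4, -0.15 to 0.19 for Krtap4-1 and -0.032 to 0.021 for Srsf2. The cause of these changes was not tested. Signal over background limits dim genes: ratios of genes not measured in 1 group are lower bounds.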
